A study of Mus musculus with 47 samples.

Results

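The daily course of gene expression in muscle stem cells was described on a control diet, in 24 of the 47 mice of the study, 4 at each of 6 times of day 4 h apart. The 24 arrays were those whose labels named the control diet and a time from 0 to 20 h, written here as zeitgeber times ZT0 to ZT20, where ZT0 is by convention lights on. Muscle stem cells, or satellite cells, are the resident precursors that rebuild skeletal muscle fibres. All 47 mice were wild-type C57B6/J females of 15 weeks that had been given a control or a high-fat diet, eaten freely, from 8 weeks of age for 7 weeks. The high-fat diet supplied 23 mice at the same times (4 at each, 3 at ZT16). Neither the light schedule nor the way the cells were isolated is stated in the labels. Each time was collected on a day of its own, shared by the mice of both diets, so that on 1 diet the time of day and the collection day cannot be told apart.

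Levels are log2 array values as the authors deposited them, for 10258 genes above a dim-signal limit of 5.80, and have no read depth; the number of arrays limits the precision. Arrays of the 24 control mice correlated with each other at 0.946 to 0.988 across genes, and the median SD between the 4 mice of a group was 0.18 log2 units. All 25 tested satellite cell markers were above the limit in the mean, among them Pax7 (10.54 to 11.19 over the 24 mice), the transcription factor that defines these cells, and Myf5 (10.17 to 10.85). Markers of other cells were mixed. Ptprc of leukocytes (3.70 to 4.59) and Pdgfra of fibro-adipogenic cells (4.22 to 4.57) lay near the non-specific control probe sets, whose median was 3.77 to 4.19. But 9 of 11 fibro-adipogenic markers on the table were above the limit, among them Dpt (10.75 to 11.55), with a list mean of 8.29 to 9.23, and so were 5 of 14 macrophage and leukocyte markers, among them Cd68 (8.12 to 9.52) and H2-Aa (6.51 to 8.14). All 9 smooth muscle and pericyte markers were above it, among them Acta2 (10.38 to 11.43) and Rgs5 (8.45 to 11.75), and 6 of 12 endothelial markers. At ZT20, 1 mouse (replicate 2) stood apart: its mean over 6 endothelial markers was 8.84, against at most 7.43 in the other control mice, and it was also the highest for macrophage, fibro-adipogenic, Schwann cell and erythroid markers. Counts without this mouse are given beside the main ones.

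The circadian clock is a transcriptional loop present in most cells. In its positive arm, BMAL1 (encoded by Arntl) pairs with CLOCK or NPAS2 at E-boxes and switches on the Per and Cry genes, whose proteins then silence the pair. In a second loop, REV-ERB receptors such as NR1D2 repress and ROR receptors activate Arntl through shared elements, while DBP, TEF and HLF activate and NFIL3 represses genes through D-boxes.

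Short letter strings written for these elements were matched in promoters of clock genes that cycled in these cells or stood out at 1 time. Below, the 250 bases before the annotated start are given 5′ to 3′ from RefSeq for GRCm38.p6, with the matched letters in capitals. Tef and Bhlhe41 are shown for the E-box letters and Per3 for the D-box letters. The last capitals of Per3 match the ROR letters TNGGTCA on the other strand, with N any base. Arntl is shown for its matches to the same ROR letters.
Tef (chr15:81802423-81802672, plus strand): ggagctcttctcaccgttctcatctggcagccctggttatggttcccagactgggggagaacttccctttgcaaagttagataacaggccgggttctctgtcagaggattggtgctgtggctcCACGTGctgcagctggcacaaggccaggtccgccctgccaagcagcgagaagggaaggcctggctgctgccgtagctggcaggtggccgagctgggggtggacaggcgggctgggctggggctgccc
Bhlhe41 (chr6:145865421-145865670, minus strand): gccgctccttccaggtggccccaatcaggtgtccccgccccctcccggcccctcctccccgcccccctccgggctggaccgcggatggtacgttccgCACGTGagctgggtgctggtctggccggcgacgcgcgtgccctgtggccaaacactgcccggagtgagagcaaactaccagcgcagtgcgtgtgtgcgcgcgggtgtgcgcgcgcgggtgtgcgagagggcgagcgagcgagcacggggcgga
Per3 (chr4:151044666-151044915, minus strand): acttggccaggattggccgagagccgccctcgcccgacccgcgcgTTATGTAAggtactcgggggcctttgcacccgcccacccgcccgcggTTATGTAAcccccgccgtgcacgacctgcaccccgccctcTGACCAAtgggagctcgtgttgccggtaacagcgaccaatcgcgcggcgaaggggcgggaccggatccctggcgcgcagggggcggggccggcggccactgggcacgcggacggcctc
Arntl (chr7:113207215-113207464, plus strand): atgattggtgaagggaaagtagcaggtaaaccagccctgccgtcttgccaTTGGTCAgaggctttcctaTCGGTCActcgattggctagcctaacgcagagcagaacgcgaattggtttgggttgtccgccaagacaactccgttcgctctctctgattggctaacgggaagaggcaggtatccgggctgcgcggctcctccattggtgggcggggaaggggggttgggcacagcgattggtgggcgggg
Promoters were listed for 19 of the 23 clock genes tested, and both strands were searched. The E-box letters CACGTG occurred in 7 of 27 clock gene promoters (25.9%) and in 6.02% of all 32851 promoters of that length. The ROR letters, TNGGTCA, occurred in 6 of the 27 (22.2%), which belong to 5 genes, and in 9.19% of all. The listed Arntl windows overlap and hold the same matches. The D-box letters TTATGTAA occurred in 1 of the 27 (3.70%), that of Per3, which holds it 205 and again 158 bases before the start, and in 0.819% of all. The second D-box spelling, TTACGTAA, was in no clock gene promoter and in 0.113% of all. None of the matches printed here overlap each other. Among promoters of the 855 genes found there of the 1081 with a called 24 h rhythm (below), 8.95% held the E-box, against 8.43% of promoters of all genes tested. A match describes letters in this window only.

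Among the 10258 genes, 1081 (10.5%) followed a 24 h cosine curve on the control diet, by limma's F test at a Benjamini-Hochberg adjusted p under 0.05. Their median amplitude, the height of the curve from its mean to its peak, was 0.26 log2 units (quartiles 0.20 and 0.35), against 0.11 over all genes tested. Amplitude exceeded 0.5 in 84 genes, and 5 genes had an amplitude over 1. More genes, 3725 (36.3%), differed in some way among the 6 times, and 2294 (22.4%) lay off the best 24 h curve. Only 1031 of the 3725 genes (27.7%) were among the 1081. Without the ZT20 mouse that stood apart, 962 genes followed the curve, 3493 differed among times and 2206 lay off the curve, with 15 clock and 11 cholesterol synthesis genes on it. The 24 h count was 606 without the ZT8 mice, and 289 when the collection day entered as a random effect. In a bulk sample, fewer cells of a type and less RNA per cell cannot be told apart, so each level below is an average over the cells of a mouse.

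Fitted peaks were spread over the day with more genes around ZT8 than at any other time. The 4 h window centred on ZT8 held 314 of the 1081 genes (29%), and the window centred on ZT4 held 213 (19.7%). A second group peaked around ZT20, with 205 genes (19%), and ZT16 had 148 (13.7%). Fewest peaked around ZT0 (106 genes, 9.81%) and ZT12 (95 genes, 8.79%). Median amplitude was alike in all windows, from 0.25 to 0.28 log2 units. In a principal component analysis of the 24 arrays, the first component held 13.9% of the variance, 90.5% of it between times. All ZT8 mice lay at one end of it and the ZT20 mice toward the other.

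**Figure D1:**
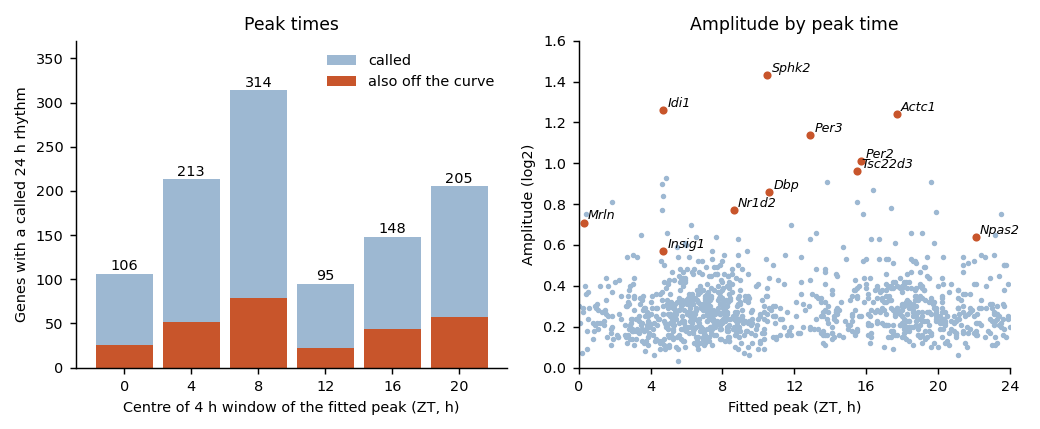
Left, genes with a called 24 h rhythm on the control diet by the 4 h window of their fitted peak (blue bars, all called genes; orange, the part that also lay off the curve); right, amplitude in log2 units against fitted peak time, 1 point per called gene, with named genes in orange. The bars at ZT4 and ZT8 (213 and 314 genes) and at ZT20 (205) are the highest, and Sphk2, at 1.43, is the highest point.

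The fitted peaks of called clock genes ran from 7.33 to 23.3 h, with none in the window centred on ZT4. Of 25 listed genes on the table, 23 were tested (Rorb and Fbxl21 fell below the signal limit). Of the 23, 16 (69.6%) followed the 24 h curve, against 10.5% of all genes, and 21 differed among the times, against 36.3%. Their median amplitude was 0.32 log2 units, against 0.11. The 10 genes Npas2, Rora, Nr1d2, Bhlhe41, Dbp, Tef, Per3, Hlf, Per2 and Usp2 kept their call in every alternative fit, with day as a random effect included. Clock, Cry1, Cry2, Nfil3, Csnk1e and Sirt1 did not pass with day as a random effect (adjusted p from 0.0712 to 0.236). Where mice at the highest and lowest times of a gene are set side by side below, these times were picked from the same values. Lack of overlap between such groups is then no separate support. It was also found in Sphk1, a gene outside the clock that did not pass the 24 h test (adjusted p = 0.703).

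In the positive arm, Npas2, the partner of BMAL1 that can stand in for CLOCK, was high around lights on. Npas2 had log2 levels of 8.46, 8.66, 8.57 and 8.45 at ZT0, 8.03, 7.79, 8.00 and 7.86 at ZT4, and 7.51, 7.47, 7.54 and 7.39 at ZT8. Npas2 then had log2 levels of 7.35, 7.40, 7.51 and 7.46 at ZT12, 7.89, 7.94, 7.84 and 7.74 at ZT16, and 8.52, 8.43, 8.75 and 8.71 at ZT20. All mice at ZT0 and ZT20 were above all others, and all mice at ZT8 and ZT12 were below all others. Npas2 had a fitted amplitude of 0.64 ± 0.04 log2 units around a peak at 22.1 ± 0.255 h (SE, adjusted p = 1.49e-14), and its mean level at ZT20 was 2.25-fold that at ZT12. Clock had levels of 8.13, 8.16, 8.16 and 8.33 at ZT0, its highest time, and 7.46, 8.15, 7.48 and 7.29 at ZT12, its lowest, and these groups overlapped through 1 ZT12 mouse. The curve of Clock had a fitted amplitude of 0.30 ± 0.08 log2 units around a peak at 23.3 ± 1.03 h (SE, adjusted p = 0.0303).

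Arntl was low at a single time. Arntl had log2 levels of 9.06, 8.79, 8.58 and 9.08 at ZT0, 8.35, 9.15, 7.88 and 8.99 at ZT4, and 8.90, 8.66, 8.26 and 8.22 at ZT8. Arntl then had log2 levels of 6.79, 7.64, 6.52 and 6.07 at ZT12, 9.55, 8.86, 9.21 and 9.02 at ZT16, and 8.71, 9.20, 7.94 and 9.14 at ZT20. Each ZT12 mouse was below each of the other 20 mice, and the other 5 times overlapped one another. Arntl differed among the times (adjusted p = 6.1e-06) and lay off the 24 h curve (adjusted p = 0.000161), while the curve itself missed the threshold (adjusted p = 0.0615). Its mean at ZT16 was 5.29-fold that at ZT12. With a 12 h curve added to the model, the 24 h curve of Arntl passed at an adjusted p of 0.0157. Arntl2, a paralogue of Arntl, differed among the times at an adjusted p of 0.115 and did not pass.

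In the second loop, the repressor gene Nr1d2 was high at the times when Npas2 was lowest. Nr1d2 had log2 levels of 9.10, 8.90, 8.98 and 9.08 at ZT0, 9.78, 9.90, 9.64 and 9.63 at ZT4, and 10.19, 9.70, 9.95 and 10.04 at ZT8. Nr1d2 then had log2 levels of 9.94, 10.01, 9.75 and 10.10 at ZT12, 9.11, 9.36, 9.29 and 9.18 at ZT16, and 8.30, 8.19, 8.23 and 8.98 at ZT20. All mice from ZT4 to ZT12 were above all mice of the other 3 times. Nr1d2 had a fitted amplitude of 0.77 ± 0.06 log2 units around a peak at 8.62 ± 0.321 h (SE, adjusted p = 3.26e-11). Rora, which encodes the activating receptor of the same elements, was highest at ZT20. Its levels were 11.49, 11.30, 11.38 and 11.35 at ZT20, its highest time, and 11.05, 11.20, 11 and 10.83 at ZT12, its lowest. Rora had a fitted amplitude of 0.18 ± 0.03 log2 units around a peak at 22.8 ± 0.678 h (SE, adjusted p = 0.000522). The Arntl promoter printed above matches the ROR letters 200 and 181 bases before the start, and receptor binding there was not tested.

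The output activators peaked in the hours around lights off by the zeitgeber convention. Dbp had log2 levels of 6.61, 7.15, 6.96 and 7.23 at ZT0, 8.07, 7.44, 7.23 and 7.68 at ZT4, and 8.82, 8.55, 8.68 and 7.95 at ZT8. Dbp then had log2 levels of 8.39, 8.23, 8.67 and 8.88 at ZT12, 7.62, 8.25, 7.80 and 8.00 at ZT16, and 7.10, 7.16, 7.22 and 6.99 at ZT20. Mice at ZT8 and ZT12 did not overlap those at ZT0 or ZT20. Dbp had a fitted amplitude of 0.86 ± 0.08 log2 units around a peak at 10.6 ± 0.355 h (SE, adjusted p = 5.05e-10), and 99.7% of the variation among its 6 means lay in the 24 h curve. Tef had log2 levels of 8.10, 7.74, 7.74 and 8.00 at ZT0, 8.02, 8.04, 8.18 and 8.17 at ZT4, and 8.79, 8.51, 8.72 and 8.71 at ZT8. Tef then had log2 levels of 9.05, 9.04, 8.95 and 9.11 at ZT12, 8.71, 8.60, 8.82 and 8.58 at ZT16, and 8.43, 8.20, 8.31 and 8.35 at ZT20. Each ZT12 mouse was above every other mouse, and each ZT0 and ZT4 mouse was below all mice of the other times. Tef had a fitted amplitude of 0.54 ± 0.05 log2 units around a peak at 12.4 ± 0.351 h (SE, adjusted p = 4.12e-10). Hlf, the third member of this family, measured 8.23, 8.08, 8.30 and 8.67 at ZT12, its highest time, and 7.90, 7.27, 7.69 and 7.64 at ZT0, its lowest. Hlf had a fitted amplitude of 0.32 ± 0.06 log2 units around a peak at 13.5 ± 0.706 h (SE, adjusted p = 0.00084). Nfil3, which encodes the repressor at the same D-boxes, was instead lowest at ZT4 and highest at ZT20. Nfil3 had a fitted amplitude of 0.17 ± 0.03 log2 units around a peak at 19.6 ± 0.796 h (SE, adjusted p = 0.0032).

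Per3 and Per2 had the largest amplitudes of the clock list. Per3 had log2 levels of 6.79, 6.34, 6.11 and 6.63 at ZT0, 7.01, 7.79, 7.25 and 7.46 at ZT4, and 8.20, 7.48, 8.01 and 8.20 at ZT8. Per3 then had log2 levels of 8.82, 9.22, 9.17 and 9.11 at ZT12, 8.70, 8.58, 8.46 and 8.48 at ZT16, and 8.08, 7.48, 7.74 and 7.52 at ZT20. Per3 was highest at ZT12 and lowest at ZT0, and in each case all 4 mice stood outside the range of the other 20. Per3 had a fitted amplitude of 1.14 ± 0.12 log2 units around a peak at 12.9 ± 0.418 h (SE, adjusted p = 6.09e-08), and its mean level at ZT12 was 6.11-fold that at ZT0. Per2 had log2 levels of 8.72, 9.02, 8.62 and 8.99 at ZT0, 7.87, 8.88, 8.06 and 8.25 at ZT4, and 9.07, 9.07, 8.81 and 8.73 at ZT8. Per2 then had log2 levels of 10.29, 10.26, 10.31 and 10.13 at ZT12, 10.03, 9.85, 10.17 and 10.01 at ZT16, and 10.49, 9.97, 9.78 and 10.02 at ZT20. All 12 mice from ZT12 to ZT20 were above all 12 mice from ZT0 to ZT8. Per2 had a fitted amplitude of 1.01 ± 0.08 log2 units around a peak at 15.7 ± 0.304 h (SE, adjusted p = 6.28e-12), but it also lay off the curve (adjusted p = 0.00465), with a step between ZT8 and ZT12 and 3 like means after it.

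Per1, the third period gene, did not pass the 24 h test (adjusted p = 0.748) although it differed among the times (adjusted p = 2.1e-08). Per1 had log2 levels of 9.42, 8.93, 9.22 and 9.13 at ZT0, 8.69, 8.91, 8.64 and 8.59 at ZT4, and 8.80, 8.76, 8.91 and 8.77 at ZT8. Per1 then had log2 levels of 9.65, 9.51, 9.50 and 9.70 at ZT12, 8.05, 8.51, 8.47 and 8.65 at ZT16, and 9.62, 9.39, 9.66 and 9.42 at ZT20. Per1 was high at ZT12 and at ZT20 and lowest in the mean at ZT16 in between, with no overlap between ZT16 and either. It is among the 10 genes with the smallest p for lying off the curve (adjusted p = 1.76e-08). Per1 is also known as an immediate early gene that hormones and stress induce directly.

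Both cryptochrome genes had their lowest mean at ZT4, but only Cry1 was set apart there. Cry1 had log2 levels of 7.50, 7.49, 7.36 and 7.39 at ZT0, 6.25, 6.60, 6.34 and 6.39 at ZT4, and 7.02, 6.82, 6.84 and 6.96 at ZT8. Cry1 then had log2 levels of 6.98, 7.26, 7.30 and 7.30 at ZT12, 7.18, 7.28, 6.92 and 6.92 at ZT16, and 7.53, 7.24, 7.23 and 7.35 at ZT20. Cry1 was lowest at ZT4, where each mouse was below all others, and highest at ZT0, the neighbouring time. The curve of Cry1 had a fitted amplitude of 0.32 ± 0.08 log2 units around a peak at 18.4 ± 0.983 h (SE, adjusted p = 0.0227), and Cry1 lay off it (adjusted p = 1.96e-05). Cry2 measured 7.63, 7.61, 7.97 and 7.61 at ZT12, its highest time, and 6.37, 7.25, 6.92 and 6.60 at ZT4, its lowest. Its means were 6.86 ± 0.29 at ZT0, 6.79 ± 0.38 at ZT4 and 7.05 ± 0.31 at ZT8 (SD, n = 4), so ZT4 did not stand apart. Cry2 had a fitted amplitude of 0.34 ± 0.09 log2 units around a peak at 13.5 ± 1.05 h (SE, adjusted p = 0.0346).

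Among other clock regulators, Bhlhe41, a repressor that competes at E-boxes, was high in the middle of the day course. Bhlhe41 had log2 levels of 6.72, 6.30, 6.26 and 6.53 at ZT0, 6.61, 6.74, 6.58 and 6.52 at ZT4, and 7.26, 7.09, 6.85 and 7.11 at ZT8. Bhlhe41 then had log2 levels of 6.97, 7.44, 7.22 and 7.14 at ZT12, 6.55, 6.45, 6.73 and 6.41 at ZT16, and 6.71, 6.23, 6.52 and 6.27 at ZT20. All ZT8 and ZT12 mice were above all others. Bhlhe41 had a fitted amplitude of 0.40 ± 0.05 log2 units around a peak at 9.89 ± 0.496 h (SE, adjusted p = 2.15e-06). Its paralogue Bhlhe40 did not pass the 24 h test (adjusted p = 0.541) but differed among the times (adjusted p = 0.0126). Ciart, which encodes another repressor of the positive arm, missed the threshold (adjusted p = 0.0586). Usp2 had log2 levels of 9.40, 9.60, 9.47 and 9.52 at ZT0, 9.01, 9.01, 8.86 and 9.08 at ZT4, and 9.03, 8.69, 8.88 and 9.02 at ZT8. Usp2 then had log2 levels of 9.39, 9.58, 9.57 and 9.53 at ZT12, 9.25, 9.23, 9.42 and 9.44 at ZT16, and 9.91, 9.71, 9.99 and 10.03 at ZT20. Usp2, a deubiquitinase that acts on clock proteins, was highest at ZT20 and lowest at ZT4 and ZT8, with no overlap with the other times in either case. Usp2 had a fitted amplitude of 0.40 ± 0.06 log2 units around a peak at 19 ± 0.531 h (SE, adjusted p = 8.44e-06), and lay off this curve (adjusted p = 4.41e-06). Csnk1e, a kinase of the PER proteins, was highest at ZT20, with a fitted amplitude of 0.15 ± 0.04 log2 units around a peak at 18 ± 1.07 h (SE, adjusted p = 0.0392). Csnk1e also lay off its curve (adjusted p = 0.00162), which held 41.2% of the variation among its means. Sirt1, a deacetylase linked to the clock, was lowest at ZT20, with a fitted amplitude of 0.27 ± 0.06 log2 units around a peak at 7.33 ± 0.917 h (SE, adjusted p = 0.0128). Csnk1d, the other casein kinase tested, and Btrc, a ubiquitin ligase subunit, did not pass the 24 h test (adjusted p = 0.91 and 0.836).

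**Figure D2:**
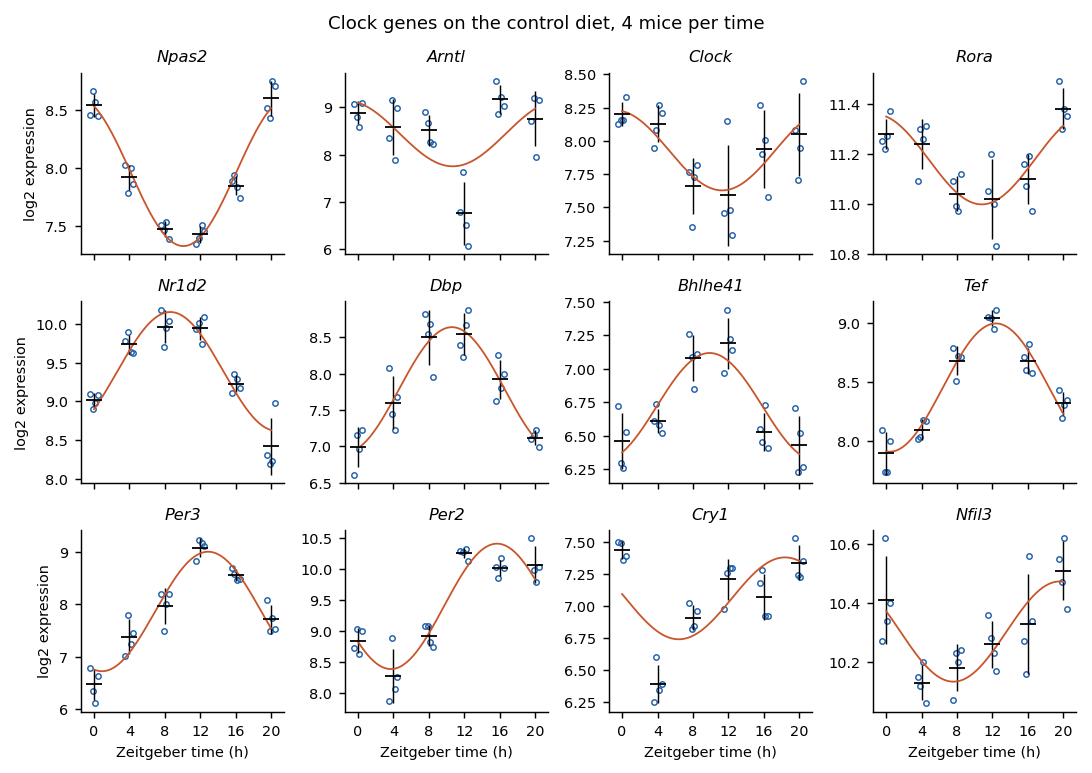
Log2 expression of 12 clock genes against zeitgeber time on the control diet; circles are single mice (4 per time), bars the mean ± SD of 4 mice, and orange lines the fitted 24 h curve. Npas2, Nr1d2, Dbp, Tef and Per3 lie close to their curves, while Arntl is low at ZT12 alone, with means from 8.51 to 9.16 at the other times, and Cry1 is low at ZT4.

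The largest amplitude of any called gene belonged to the probe set assigned to Sphk2, the gene of a kinase that makes sphingosine 1-phosphate. Sphk2 had log2 levels of 7.15, 6.84, 6.45 and 7.23 at ZT0, 8.87, 8.61, 8.81 and 8.95 at ZT4, and 9.77, 9.43, 9.74 and 9.36 at ZT8. Sphk2 then had log2 levels of 9.85, 9.68, 9.80 and 10.13 at ZT12, 8.79, 8.82, 8.97 and 8.89 at ZT16, and 7.74, 7.64, 7.89 and 7.13 at ZT20. Mice at ZT8 and ZT12 were above all others, and mice at ZT0 and ZT20 were below all mice at ZT4 to ZT16. Sphk2 had a fitted amplitude of 1.43 ± 0.09 log2 units around a peak at 10.5 ± 0.251 h (SE, adjusted p = 1.49e-14), and its mean at ZT12 was 7.7-fold that at ZT0. It also lay off the curve (adjusted p = 0.0069). In the RefSeq annotation of GRCm38.p6, Sphk2 and Dbp lie on opposite strands and overlap, and the 2 fitted peaks were 10.5 and 10.6 h. A second Sphk2 probe set, of dimmer signal, had means of 5.71, 5.55, 5.47, 5.93, 5.48 and 5.76 from ZT0 to ZT20 and did not show this course. Whether the brighter probe set measures Sphk2 RNA, Dbp RNA or both was not tested. The other 4 tested genes of sphingosine 1-phosphate metabolism and its receptors did not pass the 24 h test, among them Sphk1 (adjusted p = 0.703) and Sgpl1 (adjusted p = 0.436). Per3 overlaps Uts2, and Csnk1d overlaps Slc16a3, in the same annotation.

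Cholesterol synthesis peaked in the early part of the day course as a group. Of 28 listed genes, 19 were tested, 11 of them (57.9%) followed the 24 h curve, against 10.5% of all genes, and all 11 peaks lay between 3.49 and 5.62 h. Median amplitude over the 19 was 0.48 log2 units, against 0.11 over all genes. The list mean was 7.94 to 8.08 in the ZT0 mice, 8.18 to 8.26 at ZT4 and 8.18 to 8.60 at ZT8. It was 7.42 to 7.63 at ZT12, 7.52 to 7.72 at ZT16 and 7.48 to 7.78 at ZT20, below every mouse of the first 3 times.

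The called genes spanned the pathway. Before squalene they were Idi1, an isomerase of the isoprene units, Fdps and Fdft1, which joins the units into squalene. Idi1 had log2 levels of 8.68, 8.31, 8.57 and 8.64 at ZT0, 9.23, 8.82, 9.05 and 8.57 at ZT4, and 9.52, 9.23, 9.37 and 9.76 at ZT8. Idi1 then had log2 levels of 6.78, 6.39, 6.55 and 7.49 at ZT12, 7.05, 7.66, 7.12 and 7.51 at ZT16, and 6.97, 6.32, 6.79 and 7.72 at ZT20. All mice from ZT0 to ZT8 were above all mice from ZT12 to ZT20. Idi1 had a fitted amplitude of 1.26 ± 0.18 log2 units around a peak at 4.68 ± 0.54 h (SE, adjusted p = 1.14e-05), and its mean at ZT8 was 6.35-fold that at ZT12. From squalene on they were Sqle, Cyp51, Msmo1, Nsdhl and Sc5d. Sqle, the squalene epoxidase, had a fitted amplitude of 0.84 ± 0.12 log2 units around a peak at 4.67 ± 0.551 h (SE, adjusted p = 1.44e-05). Cyp51, the lanosterol demethylase, measured 10.19, 9.80, 10.07 and 10.24 at ZT8, its highest time, and 8.76, 8.23, 8.71 and 8.54 at ZT12, its lowest. Cyp51 had a fitted amplitude of 0.77 ± 0.09 log2 units around a peak at 4.65 ± 0.451 h (SE, adjusted p = 3.05e-07). Nsdhl had log2 levels of 8.04, 8.37, 8.08 and 7.24 at ZT0, 8.18, 8.53, 8.26 and 8.54 at ZT4, and 8.18, 7.89, 8.48 and 8.79 at ZT8. Nsdhl then had log2 levels of 7.68, 7.15, 6.94 and 7.43 at ZT12, 6.51, 7.09, 6.32 and 6.65 at ZT16, and 6.77, 6.92, 7.26 and 7.08 at ZT20. Nsdhl, a sterol dehydrogenase, was high at ZT4 and ZT8 with no overlap with ZT12 to ZT20, and 1 ZT0 mouse fell within the range of the low times. Nsdhl had a fitted amplitude of 0.93 ± 0.12 log2 units around a peak at 4.83 ± 0.481 h (SE, adjusted p = 1.19e-06).

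Called genes of sterol sensing and transport peaked within the same hours as the enzymes. Insig1 had log2 levels of 10.96, 10.89, 10.87 and 10.97 at ZT0, 11.22, 11.50, 11.29 and 11.13 at ZT4, and 11.50, 11.09, 11.28 and 11.33 at ZT8. Insig1 then had log2 levels of 10.28, 10.23, 10.37 and 10.46 at ZT12, 10.34, 10.59, 10.38 and 10.21 at ZT16, and 10.36, 10.05, 10.33 and 10.64 at ZT20. Insig1, which holds the sterol-sensing complex in the endoplasmic reticulum and is itself a target of the pathway, was above its later range in all 12 mice from ZT0 to ZT8. Insig1 had a fitted amplitude of 0.57 ± 0.05 log2 units around a peak at 4.7 ± 0.342 h (SE, adjusted p = 2.23e-10). Srebf2, the transcription factor that activates these enzymes, had a fitted amplitude of 0.47 ± 0.06 log2 units around a peak at 5.19 ± 0.513 h (SE, adjusted p = 3.96e-06). Stard4, a sterol carrier, had a fitted amplitude of 0.90 ± 0.13 log2 units around a peak at 4.62 ± 0.568 h (SE, adjusted p = 2.71e-05). Of the 11, 8 also lay off a pure 24 h curve, among them Idi1 (adjusted p = 1.52e-05) and Insig1 (adjusted p = 0.00419), with 3 high and 3 low times; Nsdhl did not (adjusted p = 0.767). The sterol element letters TCACNCCAC were found in none of 20 promoters of the list and in 1.05% of all promoters, and the E-box letters in 5 of the 20.

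Fatty acid and triglyceride synthesis had 5 of 18 tested genes on the curve (27.8%, against 10.5% of all genes), and 11 differed among the times (61.1%, against 36.3%). Fasn, the fatty acid synthase, had a fitted amplitude of 0.26 ± 0.05 log2 units around a peak at 7.12 ± 0.773 h (SE, adjusted p = 0.00236). Thrsp, a lipogenic regulator, peaked later, with a fitted amplitude of 0.53 ± 0.12 log2 units around a peak at 10.4 ± 0.86 h (SE, adjusted p = 0.00717). Elovl6, a fatty acid elongase, had a fitted amplitude of 0.35 ± 0.09 log2 units around a peak at 3.55 ± 1.03 h (SE, adjusted p = 0.0309), and Acsl4 had a fitted amplitude of 0.31 ± 0.08 log2 units around a peak at 5.8 ± 0.932 h (SE, adjusted p = 0.0149). Fasn and Acsl4 also lay off their curves (adjusted p = 0.0133 and 0.00598). With day as a random effect Elovl6, Thrsp and Acsl4 did not pass (adjusted p = 0.253, 0.121 and 0.1), and Elovl6 kept its call in 21 of 24 fits without 1 mouse. Of probe sets above the signal limit, 1 of 2 for Acsl4 and 2 of 3 for Elovl6 peaked within 4 h of the fit. Their amplitudes ran from 0.25 to 0.31 for Acsl4 and from 0.08 to 0.35 for Elovl6. The list mean was highest at ZT8, at 8.59 to 8.70, above every mouse of the other times, which lay between 8.23 and 8.46.

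Among genes of fatty acid oxidation and PPAR targets, 3 of 22 (13.6%) followed the curve and 36.4% differed among the times, shares near the 10.5% and 36.3% of all genes. The 3 were Cpt1a, the entry enzyme of mitochondrial oxidation, Cpt2 and Angptl4, a lipase inhibitor. Cpt1a had a fitted amplitude of 0.50 ± 0.10 log2 units around a peak at 23.7 ± 0.788 h (SE, adjusted p = 0.00287), and Angptl4 had a fitted amplitude of 0.55 ± 0.10 log2 units around a peak at 23.1 ± 0.727 h (SE, adjusted p = 0.00122). Cpt2 did not pass with day as a random effect (adjusted p = 0.108). All 3 genes also lay off their curves (adjusted p = 0.0002 for Cpt1a, 0.000207 for Cpt2 and 0.0178 for Angptl4). Pdk4, a kinase that blocks pyruvate entry into mitochondria, did not pass the 24 h test (adjusted p = 0.467) but was among the 10 genes with the smallest p for lying off it (adjusted p = 2.32e-08).

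Of 16 tested genes that glucocorticoids are known to induce, 6 (37.5%) followed the curve, against 10.5% of all genes, with peaks from 12.9 to 23.7 h. Among the 16, 13 differed among the times (81.2%, against 36.3%) and 9 lay off the curve (56.2%, against 22.4%). Tsc22d3 had log2 levels of 7.69, 7.53, 6.75 and 7.35 at ZT0, 6.31, 7.13, 7.11 and 7.29 at ZT4, and 7.63, 7.12, 7.51 and 7.55 at ZT8. Tsc22d3 then had log2 levels of 9.07, 9.07, 8.74 and 8.59 at ZT12, 8.40, 8.42, 8.60 and 8.64 at ZT16, and 8.55, 8.76, 8.37 and 8.42 at ZT20. Tsc22d3, which encodes the leucine zipper protein GILZ, was higher in all 12 mice from ZT12 to ZT20 than in any mouse from ZT0 to ZT8. Tsc22d3 had a fitted amplitude of 0.96 ± 0.12 log2 units around a peak at 15.5 ± 0.458 h (SE, adjusted p = 3.97e-07). Zbtb16, a zinc finger transcription factor, measured 9.99, 9.80, 9.93 and 9.69 at ZT12, its highest time, and 7.62, 7.22, 7.84 and 8.38 at ZT4, its lowest. Zbtb16 had a fitted amplitude of 0.91 ± 0.17 log2 units around a peak at 13.8 ± 0.732 h (SE, adjusted p = 0.00132). Fkbp5, a chaperone of the glucocorticoid receptor, had a fitted amplitude of 0.63 ± 0.12 log2 units around a peak at 12.9 ± 0.738 h (SE, adjusted p = 0.00142), and Klf15 had a fitted amplitude of 0.28 ± 0.07 log2 units around a peak at 14.3 ± 0.984 h (SE, adjusted p = 0.0229). Klf15 did not pass with day as a random effect (adjusted p = 0.171). Zbtb16 and Tsc22d3 also lay off their curves (adjusted p = 0.000626 and 0.00889). The median amplitude of the 16 genes was 0.13 log2 units, close to the 0.11 of all genes.

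Hsd11b1, the enzyme that regenerates active glucocorticoid inside cells, peaked at the same part of the day course. Its levels were 10.57, 10.57, 10.51 and 10.47 at ZT16, its highest time, and 9.34, 9.47, 9.21 and 9.41 at ZT0, its lowest. Hsd11b1 had a fitted amplitude of 0.59 ± 0.07 log2 units around a peak at 14.7 ± 0.442 h (SE, adjusted p = 2.05e-07). In the insulin and FOXO list, 6 of 16 genes (37.5%, against 10.5%) followed the curve and 14 differed among the times (87.5%, against 36.3%). Pik3r1, a regulatory subunit of phosphoinositide 3-kinase, had a fitted amplitude of 0.25 ± 0.04 log2 units around a peak at 13.6 ± 0.549 h (SE, adjusted p = 1.37e-05). Irs1, an insulin receptor substrate, had a fitted amplitude of 0.24 ± 0.06 log2 units around a peak at 8.42 ± 0.992 h (SE, adjusted p = 0.0244), and Ccng2, a FOXO target, had a fitted amplitude of 0.25 ± 0.06 log2 units around a peak at 21.5 ± 0.911 h (SE, adjusted p = 0.0122). Irs1 and Ccng2 did not pass with day as a random effect (adjusted p = 0.193 and 0.127).

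**Figure D3:**
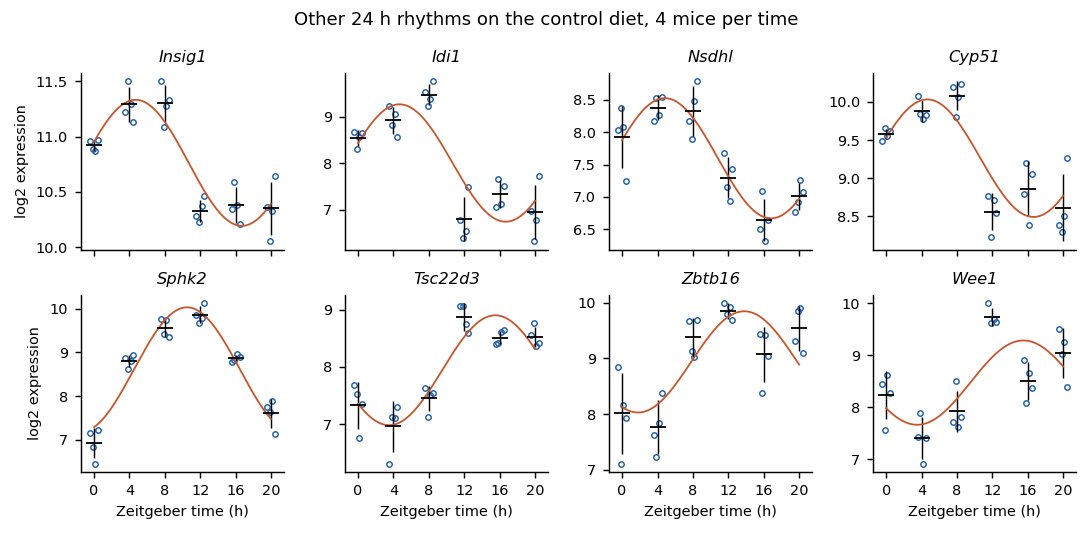
Log2 expression of 8 genes against zeitgeber time on the control diet, drawn as for the clock genes (circles, 4 mice per time; bars, mean ± SD; orange, fitted 24 h curve). Insig1, Idi1, Nsdhl and Cyp51 are high from ZT0 or ZT4 to ZT8, Sphk2 and Zbtb16 are highest at ZT12, and all ZT12 to ZT20 mice of Tsc22d3 lie at 8.37 or above.

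Cell cycle genes had early and late peaks. Of 24 tested, 8 (33.3%, against 10.5% of all genes) followed the curve. Ccnd1, the cyclin of G1 entry, had a fitted amplitude of 0.55 ± 0.09 log2 units around a peak at 8.87 ± 0.599 h (SE, adjusted p = 6.87e-05), and its partner kinase gene Cdk4 had a fitted amplitude of 0.24 ± 0.06 log2 units around a peak at 9.09 ± 0.979 h (SE, adjusted p = 0.0219). Several inhibitors of the cycle peaked later. Rb1, the retinoblastoma gene, had a fitted amplitude of 0.66 ± 0.09 log2 units around a peak at 19.1 ± 0.548 h (SE, adjusted p = 1.35e-05). Its lowest mean, 5.36 at ZT8, lay under the signal limit of 5.80. Cdkn1c, the inhibitor p57, which is also on the commitment list, had a fitted amplitude of 0.61 ± 0.15 log2 units around a peak at 17.6 ± 0.953 h (SE, adjusted p = 0.0177); with day as a random effect its adjusted p was 0.175. Its ZT0 levels were 7.75, 9.34, 8.71 and 8.59, beside 4.10, 8.64, 4.78 and 7.15 for the fibre actin Actc1 in the same mice, and the part of fibre RNA in it was not tested. Wee1 had log2 levels of 8.45, 7.57, 8.62 and 8.27 at ZT0, 7.43, 7.90, 6.92 and 7.41 at ZT4, and 7.72, 8.51, 7.62 and 7.81 at ZT8. Wee1 then had log2 levels of 10.00, 9.63, 9.69 and 9.64 at ZT12, 8.91, 8.08, 8.66 and 8.38 at ZT16, and 9.51, 9.02, 9.25 and 8.40 at ZT20. Wee1, a kinase that holds back entry into mitosis and a known clock target in mouse liver, was highest at ZT12, where all 4 mice were above the other 20. Wee1 had a fitted amplitude of 0.81 ± 0.17 log2 units around a peak at 15.5 ± 0.786 h (SE, adjusted p = 0.00278) and lay off its curve (adjusted p = 9.96e-05). The median amplitude over the 24 genes was 0.18 log2 units.

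Protein folding, proteasome and ribosome biogenesis genes that were called peaked before ZT12. In the unfolded protein and integrated stress response list, 7 of 23 (30.4%, against 10.5% of all genes) followed the curve, all with peaks from 4.88 to 10.9 h. Calr, a chaperone of the endoplasmic reticulum, had a fitted amplitude of 0.24 ± 0.03 log2 units around a peak at 5.2 ± 0.561 h (SE, adjusted p = 2.04e-05). Hspa5, the main chaperone there, had a fitted amplitude of 0.14 ± 0.02 log2 units around a peak at 5.23 ± 0.658 h (SE, adjusted p = 0.000332), and Hyou1 had a fitted amplitude of 0.27 ± 0.05 log2 units around a peak at 6.07 ± 0.701 h (SE, adjusted p = 0.000785). Atf4, the transcription factor of the integrated stress response, had a fitted amplitude of 0.16 ± 0.03 log2 units around a peak at 4.99 ± 0.645 h (SE, adjusted p = 0.000244). Of 2 Atf4 probe sets above the signal limit, 1 peaked within 4 h of its fit, with amplitudes from 0.10 to 0.16. The list mean was 8.87 to 9.03 at ZT4 and 8.66 to 8.75 at ZT20.

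In the proteasome, 7 of 33 genes (21.2%, against 10.5%) followed the curve, with peaks from 3.90 to 9.37 h. Psmb7, a catalytic subunit of the core, had a fitted amplitude of 0.46 ± 0.07 log2 units around a peak at 7.61 ± 0.6 h (SE, adjusted p = 7.02e-05), and Psma1 had a fitted amplitude of 0.30 ± 0.06 log2 units around a peak at 5.17 ± 0.798 h (SE, adjusted p = 0.00328). Psma1 missed the threshold with day as a random effect (adjusted p = 0.0546). The proteasome list mean was highest at ZT8 (9.09 to 9.23) and lowest at ZT20 (8.77 to 8.93). In ribosome biogenesis, 5 of 23 (21.7%, against 10.5%) followed the curve, with peaks from 4.52 to 9.27 h, 19 differed among the times (82.6%, against 36.3%) and 14 lay off the curve (60.9%, against 22.4%). Ncl, the gene of nucleolin, had a fitted amplitude of 0.29 ± 0.06 log2 units around a peak at 6.52 ± 0.749 h (SE, adjusted p = 0.00168), and Bop1 had a fitted amplitude of 0.28 ± 0.06 log2 units around a peak at 5.59 ± 0.756 h (SE, adjusted p = 0.00178). Of the cytosolic ribosomal protein genes, 0 of 56 passed the 24 h test by limma (smallest adjusted p 0.057, 3 at an unadjusted p under 0.05), and their median amplitude was 0.03 log2 units.

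Oxidative phosphorylation genes showed small amplitudes. Of 69 tested, 10 (14.5%) followed the curve, against 10.5% of all genes, and 28 differed among the times (40.6%), against 36.3%. The median amplitude was 0.11 log2 units, that of all genes. Peaks of 9 of the 10 lay from 5.37 to 10.7 h, among them Atp5b, an ATP synthase subunit, with a fitted amplitude of 0.18 ± 0.04 log2 units around a peak at 8.82 ± 0.824 h (SE, adjusted p = 0.00461), and Ndufc2 of complex I, with a fitted amplitude of 0.28 ± 0.05 log2 units around a peak at 10.7 ± 0.71 h (SE, adjusted p = 0.000894). Uqcrc2 of complex III peaked at 19.6 h. Of its 2 probe sets above the signal limit, 1 peaked within 4 h of that, with amplitudes from 0.01 to 0.10. In the antioxidant list 1 of 15 followed the curve (6.67%, against 10.5% of all genes). It was Prdx1, a peroxide-removing enzyme, with a fitted amplitude of 0.21 ± 0.03 log2 units around a peak at 8.81 ± 0.611 h (SE, adjusted p = 9.13e-05).

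Satellite cell identity genes had small amplitudes. The mean over the 25 markers was 9.86 to 10.04 in all 24 mice, and 6 (24%, against 10.5% of all genes) followed the curve with amplitudes of 0.27 log2 units or less. Pax7 had a fitted amplitude of 0.16 ± 0.04 log2 units around a peak at 7.51 ± 0.908 h (SE, adjusted p = 0.0118). Cdh15, the adhesion molecule M-cadherin, had a fitted amplitude of 0.27 ± 0.06 log2 units around a peak at 8.24 ± 0.819 h (SE, adjusted p = 0.00439), and Cd34 peaked later, with a fitted amplitude of 0.27 ± 0.06 log2 units around a peak at 21.4 ± 0.785 h (SE, adjusted p = 0.00277). Cdh15 did not pass with day as a random effect (adjusted p = 0.0794), and Cd34 lay off its curve (adjusted p = 0.0411). Among myogenic commitment genes 4 of 8 (50%, against 10.5%) followed the curve, with peaks from 17.4 to 22.1 h. Myog, the transcription factor of terminal differentiation, had a fitted amplitude of 0.78 ± 0.22 log2 units around a peak at 17.4 ± 1.07 h (SE, adjusted p = 0.0402), and Mymk, a fusion protein of myoblasts, had a fitted amplitude of 0.66 ± 0.17 log2 units around a peak at 18.5 ± 0.98 h (SE, adjusted p = 0.0221). Neither call held with day as a random effect (adjusted p = 0.278 for Myog and 0.203 for Mymk). Myog kept its call in 14 of 24 fits without 1 mouse. At ZT8 the means of Myog and Mymk, 5.62 and 5.35, lay under the signal limit of 5.80.

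Muscle fibre transcripts varied between mice as well as between times. Of 19 tested fibre markers, 6 (31.6%, against 10.5% of all genes) followed the curve. Fitted peaks of 4 of them lay from 17.2 to 19.6 h, while Tpm2 and Tpm1 peaked at 1.5 and 2.75 h. Acta1 had log2 levels of 5.58, 7.70, 5.56 and 7.25 at ZT0, 5.73, 5.40, 5.57 and 7.82 at ZT4, and 6.58, 5.89, 5.87 and 5.73 at ZT8. Acta1 then had log2 levels of 5.67, 6.09, 6.56 and 5.19 at ZT12, 6.90, 7.46, 6.67 and 7.36 at ZT16, and 7.95, 7.49, 7.87 and 8.35 at ZT20. Acta1, the actin of skeletal fibres, was at 7.49 or higher in all ZT20 mice, but single mice at ZT0 and ZT4 reached that range. Acta1 had a fitted amplitude of 0.91 ± 0.19 log2 units around a peak at 19.6 ± 0.813 h (SE, adjusted p = 0.00399). Actc1, the cardiac and embryonic actin, had a fitted amplitude of 1.24 ± 0.34 log2 units around a peak at 17.7 ± 1.06 h (SE, adjusted p = 0.0376), and its ZT0 mice ranged from 4.10 to 8.64; it kept its call in 14 of 24 fits without 1 mouse. The Actc1 means at ZT4 and ZT8, 5.04 and 4.92, lay under the signal limit of 5.80. With day as a random effect, the adjusted p was 0.0714 for Acta1 and 0.272 for Actc1. The mean over the 19 markers was 6.95 to 7.09 at ZT20 and 6.43 to 7.02 at the other times, which overlap. Myh2, Myh4 and Ttn lay below the signal limit of 5.80 in their mean over all 47 mice. In single control mice Ttn ran from 4.49 to 7.33 (median 5.83), Myh2 from 5.33 to 6.73 and Myh4 from 4.0 to 4.8. How far fibre RNA in the preparations bears on the commitment genes was not tested.

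Genes with other roles were also among those called. Mrln had log2 levels of 8.44, 8.53, 8.80 and 8.13 at ZT0, 8.75, 8.22, 8.88 and 8.39 at ZT4, and 7.10, 7.30, 7.52 and 7.37 at ZT8. Mrln then had log2 levels of 7.23, 7.14, 7.10 and 7.71 at ZT12, 7.30, 7.68, 7.57 and 7.48 at ZT16, and 8.22, 8.32, 7.97 and 8.30 at ZT20. Mrln, which encodes myoregulin, an inhibitor of the muscle calcium pump, was higher in every mouse at ZT20, ZT0 and ZT4 than in any mouse at ZT8 to ZT16. Mrln had a fitted amplitude of 0.71 ± 0.08 log2 units around a peak at 0.27 ± 0.452 h (SE, adjusted p = 3.05e-07). Cdh4, the adhesion molecule R-cadherin, measured 8.73, 8.27, 8.76 and 8.73 at ZT0, its highest time, and 7.04, 6.37, 6.97 and 6.47 at ZT16, its lowest. Cdh4 had a fitted amplitude of 0.81 ± 0.13 log2 units around a peak at 1.86 ± 0.605 h (SE, adjusted p = 8e-05). Stk35, a kinase, had a fitted amplitude of 0.53 ± 0.06 log2 units around a peak at 16 ± 0.407 h (SE, adjusted p = 3.11e-08), and Selenof, a selenoprotein of the endoplasmic reticulum, had a fitted amplitude of 0.30 ± 0.03 log2 units around a peak at 8.16 ± 0.431 h (SE, adjusted p = 1.25e-07). Around ZT20 the smallest p-values belonged to Wbp1l, with a fitted amplitude of 0.54 ± 0.06 log2 units around a peak at 20.3 ± 0.451 h (SE, adjusted p = 3.05e-07), Itm2b, Sorbs3 and Pitpnc1. Akr1c14 had a fitted amplitude of 0.87 ± 0.23 log2 units around a peak at 16.4 ± 1.02 h (SE, adjusted p = 0.0286); its adjusted p was 0.248 with day as a random effect.

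Extracellular matrix genes differed among the times more often than they followed a 24 h curve. Of 22 tested, 18 differed among the times (81.8%), against 36.3% of all genes, and 15 lay off the curve (68.2%), against 22.4%. The curve was followed by 5 (22.7%, against 10.5%). The list mean was 9.53 to 9.83 at ZT4 and 9.42 to 9.88 at ZT20, and 9.46 to 9.59 at ZT12, with no overlap with ZT0 (9.29 to 9.30) or ZT8 (9.18 to 9.30). Col5a1, a fibrillar collagen chain, had a fitted amplitude of 0.30 ± 0.05 log2 units around a peak at 0.0344 ± 0.69 h (SE, adjusted p = 0.000634), and Col18a1 had a fitted amplitude of 0.32 ± 0.06 log2 units around a peak at 5.87 ± 0.763 h (SE, adjusted p = 0.00201). Col18a1 also lay off its curve (adjusted p = 0.0129). The 9 tested fibro-adipogenic markers had a mean of 8.59 to 9.07 at ZT4 and 8.47 to 9.23 at ZT20, beside 8.29 to 8.57 at ZT0 and 8.30 to 8.60 at ZT8. The highest ZT20 value, 9.23, belongs to the mouse that stood apart. Their part in the matrix result was not tested.

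Of the 2294 genes that lay off the 24 h curve, 1417 (61.8%) had the largest share of their variation in a 12 h component, which a single low or high time can also give. The 12 h component peaked near ZT0 and ZT12 in 556 of them, near ZT4 and ZT16 in 519, and in 342 near ZT8 and ZT20. Another 483 (21.1%) had the largest share in a component that alternates from one time to the next. The second principal component, with 12% of the variance and 94.5% of it between times, had the ZT0 and ZT12 mice at one end and the ZT4 and ZT16 mice at the other. With 6 times on 6 separate days, a 12 h course and differences between days cannot be told apart. Of these genes 278 also followed the 24 h curve.

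Tob2, an antiproliferative regulator of mRNA decay, had the smallest p. Tob2 had log2 levels of 11.07, 11.12, 11.19 and 11.11 at ZT0, 10.58, 10.56, 10.59 and 10.43 at ZT4, and 10.52, 10.52, 10.53 and 10.71 at ZT8. Tob2 then had log2 levels of 11.12, 10.99, 11 and 11.18 at ZT12, 10.35, 10.35, 10.33 and 10.17 at ZT16, and 10.97, 10.96, 10.98 and 10.81 at ZT20. All mice at ZT0, ZT12 and ZT20 were above all mice at ZT4, ZT8 and ZT16. Tob2 lay off the curve at an adjusted p of 4.28e-12, and its curve had an adjusted p of 0.526. Spata4 had log2 levels of 4.81, 5.48, 4.91 and 4.74 at ZT0, 7.29, 7.45, 8.47 and 7.56 at ZT4, and 6.72, 7.14, 6.75 and 7.54 at ZT8. Spata4 then had log2 levels of 5.79, 5.72, 5.77 and 6.06 at ZT12, 8.42, 7.19, 8.54 and 7.61 at ZT16, and 6.30, 6.93, 6.85 and 6.12 at ZT20. Spata4, a gene named for its testis expression, was highest at ZT4 and ZT16 and lowest at ZT0, where all 4 mice were below the signal limit of 5.80 (adjusted p = 1.64e-08 off the curve). Pvr, a cell adhesion receptor, had a single low time, with levels of 10.96, 10.79, 10.98 and 10.90 at ZT8, its highest time, and 10.10, 10.04, 10.12 and 10.09 at ZT12, its lowest. No ZT12 mouse reached the range of any other time (adjusted p = 6.11e-09 off the curve).

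Some heat shock genes were high at ZT4 and ZT16. Dnajb1 had log2 levels of 10.21, 10.31, 10.41 and 10.51 at ZT0, 10.75, 10.73, 10.75 and 10.83 at ZT4, and 10.35, 10.43, 10.32 and 10.32 at ZT8. Dnajb1 then had log2 levels of 10.38, 10.57, 10.34 and 10.30 at ZT12, 10.71, 10.90, 10.73 and 10.89 at ZT16, and 10.20, 10.25, 10.19 and 10.48 at ZT20. Dnajb1, a co-chaperone of the HSP70 proteins, was higher in every ZT4 and ZT16 mouse than in any other mouse (adjusted p = 1.64e-08 off the curve). Hspb1, a small heat shock protein gene, was highest at ZT16 (adjusted p = 1.76e-08). Of 14 tested heat shock genes, 7 lay off the curve (50.0%), against 22.4% of all genes, and 1, Hspa8, followed it (7.14%, against 10.5%). The list mean was 10.25 to 10.40 at ZT16 and 10.05 to 10.26 at the other times. Immediate early genes, which cells induce within minutes of stimulation, also lay off the curve in 12 of 22 cases (54.5%, against 22.4%). The curve was followed by 5 of them (22.7%, against 10.5% of all genes). Nr4a2, an orphan nuclear receptor gene, had a fitted amplitude of 0.26 ± 0.05 log2 units around a peak at 21.7 ± 0.732 h (SE, adjusted p = 0.00132), and Fosl1, an AP-1 subunit gene, had a fitted amplitude of 0.29 ± 0.07 log2 units around a peak at 0.584 ± 0.98 h (SE, adjusted p = 0.0221). Fosl1 also lay off its curve (adjusted p = 0.000493) and did not pass with day as a random effect (adjusted p = 0.103). Of 4 Nr4a2 probe sets above the signal limit, 3 peaked within 4 h of its fit, with amplitudes from 0.01 to 0.30 over the 4.

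Control measures of the arrays also differed between times. The actin 3′ minus 5′ control difference had means of -0.23 ± 0.06 at ZT0 and -0.37 ± 0.05 at ZT16 (log2 units, SD, n = 4), its extremes, and the Gapdh one -0.07 ± 0.06 at ZT0 and -0.18 ± 0.04 at ZT4. These ranges exceed the SD between mice, and stand beside small amplitudes such as 0.14 for Hspa5 and 0.15 for Csnk1e. The 18S control ran from 12.75 to 12.84 and the hybridisation spikes from 10.07 to 10.15. Their part in the results was not tested. Some markers of other cells were called. Of 9 smooth muscle and pericyte markers 2 were on the 24 h curve (22.2%, against 10.5% of all genes). Acta2, the smooth muscle actin, had a fitted amplitude of 0.30 ± 0.06 log2 units around a peak at 0.927 ± 0.724 h (SE, adjusted p = 0.00118), and Mylk, the myosin light chain kinase, had a fitted amplitude of 0.43 ± 0.10 log2 units around a peak at 2.24 ± 0.907 h (SE, adjusted p = 0.0117). With day as a random effect the adjusted p was 0.0392 for Acta2 and 0.141 for Mylk. Of 2 Acta2 probe sets above the signal limit, 1 peaked within 4 h of its fit, with amplitudes from 0.19 to 0.30. Endothelial Tek (1 of 6 markers) had a fitted amplitude of 0.28 ± 0.08 log2 units around a peak at 21.9 ± 1.06 h (SE, adjusted p = 0.0374), and adipocyte Lipe (1 of 3) had a fitted amplitude of 0.20 ± 0.06 log2 units around a peak at 21.6 ± 1.09 h (SE, adjusted p = 0.0457); neither passed with day as a random effect (0.228 and 0.268). These were 16.7% of the tested endothelial and 33.3% of the tested adipocyte markers, against 10.5% of all genes. The part of these cell markers in the other results was not tested. Several lists held no gene on the 24 h curve by limma: NF-kB targets (0 of 11, 3 at an unadjusted p under 0.05), interferon response (0 of 9, 1), Schwann cell markers (0 of 7, 2), macrophage and leukocyte markers (0 of 5, 2), fibro-adipogenic markers (0 of 9, 2) and erythroid markers (0 of 2, 0). Of these lists, 7, 2, 5, 2, 4 and 0 genes in that order differed among the times. Those were 63.6%, 22.2%, 71.4%, 40%, 44.4% and 0% of the tested members, against 36.3% of all genes.

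**Figure D4:**
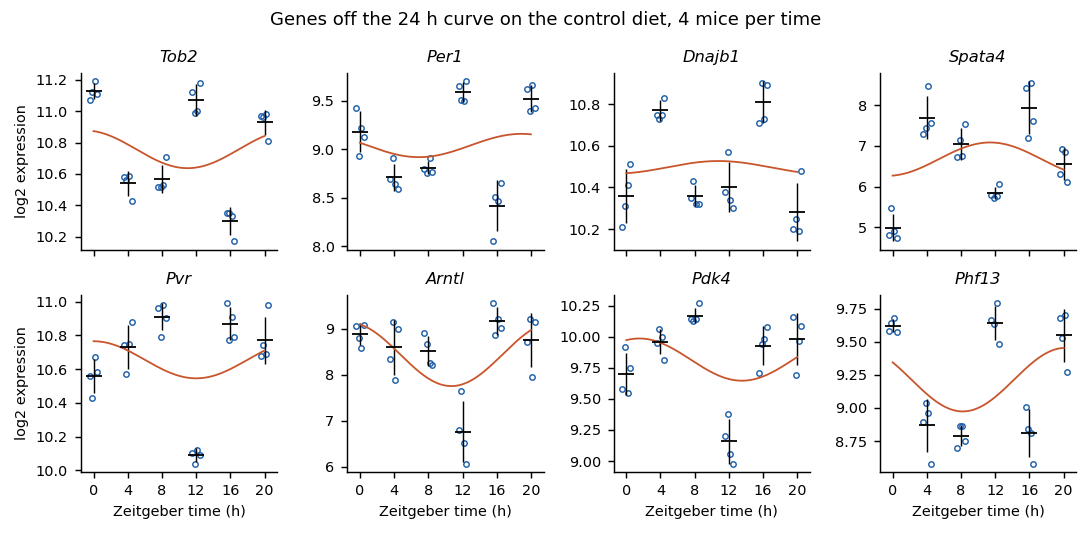
Log2 expression of 8 genes against zeitgeber time on the control diet, drawn as for the clock genes, each with the fitted 24 h curve in orange. Tob2 and Per1 are high at ZT0, ZT12 and ZT20, Dnajb1 and Spata4 at ZT4 and ZT16, and Pvr and Arntl are low at ZT12 alone, where every mouse lies below the other 20.

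**Figure D5:**
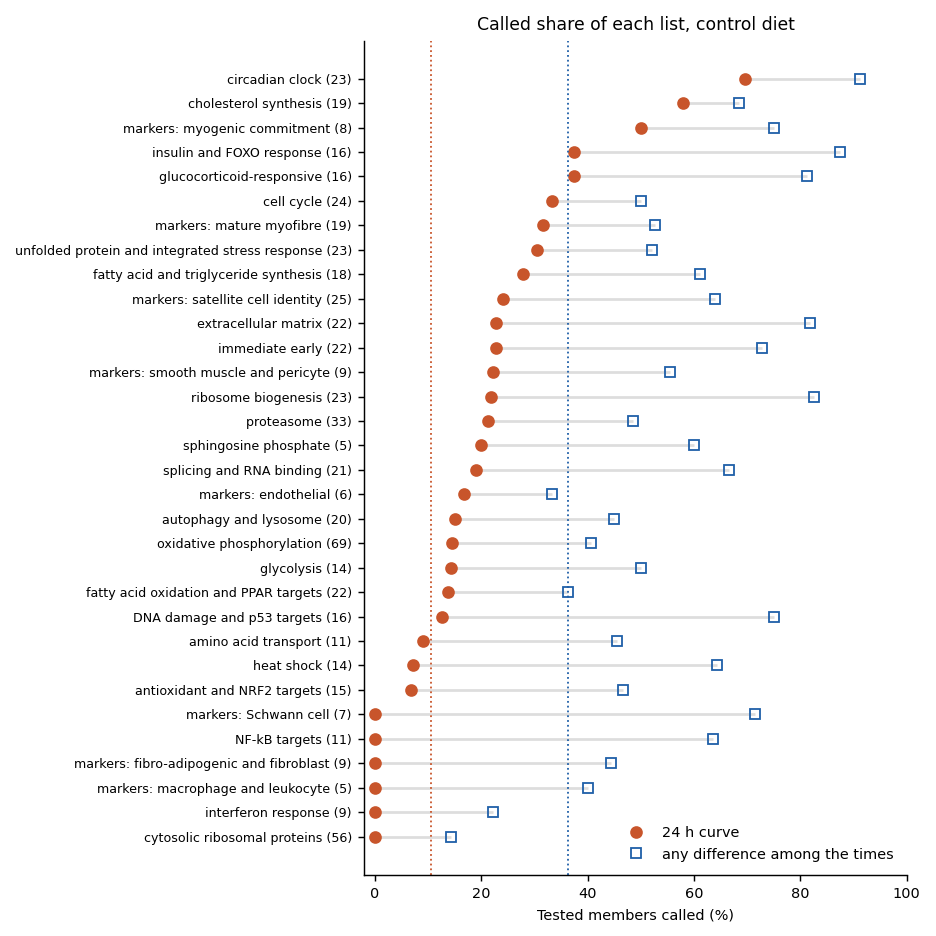
Percentage of the tested members of each gene list (number in brackets) that followed the 24 h curve (orange circles) or differed among the 6 times (blue squares) on the control diet; dotted lines mark the same percentages over all genes, 10.5 and 36.3. Lists with fewer than 5 tested genes are left out; the clock and cholesterol lists have the highest 24 h percentages, 69.6 and 57.9.

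The same 6 days held mice on the high-fat diet, so differences in rhythm between the diets lie within days. The test of that difference passed for 216 of 10258 genes (2.11%), 78 of them with the larger amplitude on the control diet and the rest with the larger on the high-fat diet. Of the 1081 genes that followed the curve on the control diet, 77 were among the 216. Of the 77, 60 had the larger amplitude on the control diet, a majority favoured in advance by picking them for a control curve. The count fell to 59 without 1 high-fat ZT16 mouse (replicate 3) and to 120 without control ZT16 replicate 4. It was 234 without the ZT20 mouse that stood apart, and 22 when 24 h curves replaced the 6 separate times in the model.

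Of the 16 clock genes called on the control diet, 15 were also called on the high-fat diet, 12 had fitted peaks within 2 h of each other on both, and 1, Bhlhe41, passed the test of the difference. Bhlhe41 had an amplitude of 0.40 ± 0.05 log2 units and a peak of 9.89 h in control mice, and 0.31 ± 0.05 and 13.5 h in high-fat mice (adjusted p = 0.023). Npas2 had an amplitude of 0.64 ± 0.04 log2 units and a peak of 22.1 h in control mice, and 0.51 ± 0.04 and 21.3 h in high-fat mice (adjusted p = 0.139). Per2 had an amplitude of 1.01 ± 0.08 log2 units and a peak of 15.7 h in control mice, and 0.93 ± 0.08 and 15.9 h in high-fat mice (adjusted p = 0.744). Arntl, below the threshold on the control diet, had an amplitude of 0.69 ± 0.21 log2 units and a peak of 22.7 h in control mice, and 1.18 ± 0.21 and 23.6 h in high-fat mice (adjusted p = 0.249).

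Outside the clock, Rb1 had an amplitude of 0.66 ± 0.09 log2 units and a peak of 19.1 h in control mice, and 0.09 ± 0.10 and 18.1 h in high-fat mice (adjusted p = 0.0396 for the difference). Acta1 had an amplitude of 0.91 ± 0.19 log2 units and a peak of 19.6 h in control mice, and 0.20 ± 0.19 and 9.16 h in high-fat mice (adjusted p = 0.0432). Nr4a2 had an amplitude of 0.26 ± 0.05 log2 units and a peak of 21.7 h in control mice, and 0.09 ± 0.05 and 12.1 h in high-fat mice (adjusted p = 0.0192). Xpo1, a nuclear export receptor, peaked at different times, with an amplitude of 0.46 ± 0.09 log2 units and a peak of 6.37 h in control mice, and 0.36 ± 0.09 and 22.9 h in high-fat mice (adjusted p = 0.00516). Probe sets above the signal limit did not all agree. Within 4 h of the control peak lay 1 of 2 for Xpo1, 3 of 4 for Nr4a2 and 2 of 3 for Ezh1. Their control amplitudes ran from 0.01 to 0.46, from 0.01 to 0.30 and from 0.06 to 0.19 in that order. The control ZT8 mean of Rb1, 5.36, lay under the signal limit of 5.80. In other genes with a called difference the larger amplitude was on the high-fat diet. Mag, a myelin protein gene with the smallest p, had an amplitude of 0.13 ± 0.05 log2 units and a peak of 3.79 h in control mice, and 0.34 ± 0.05 and 12.9 h in high-fat mice (adjusted p = 0.000926). Control levels of Mag ran from 5.69 to 6.49, near the signal limit of 5.80, and its control curve did not pass the 24 h test (adjusted p = 0.207). Ezh1, a histone methyltransferase gene, had an amplitude of 0.19 ± 0.05 log2 units and a peak of 21.8 h in control mice, and 0.38 ± 0.06 and 15.6 h in high-fat mice (adjusted p = 0.00828). Scd1, a fatty acid desaturase gene, had an amplitude of 0.11 ± 0.04 log2 units and a peak of 18.6 h in control mice, and 0.36 ± 0.05 and 16.9 h in high-fat mice (adjusted p = 0.0174). In cholesterol synthesis no member passed: Nsdhl had an amplitude of 0.93 ± 0.12 log2 units and a peak of 4.83 h in control mice, and 0.34 ± 0.12 and 4.47 h in high-fat mice (adjusted p = 0.0549). Idi1 had an amplitude of 1.26 ± 0.18 log2 units and a peak of 4.68 h in control mice, and 1.34 ± 0.19 and 4.02 h in high-fat mice (adjusted p = 0.732).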

How the data were processed

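RNA of muscle stem cells was hybridised to Affymetrix arrays, 1 per mouse. Per the submitters' processing notes the deposited log2 values were made with RMA, which corrects background, normalizes between arrays and summarises probes; its version is not given in the sources used here. The table held 45141 probe sets, of which 28898 were assigned 1 gene symbol, 551 several and 15692 none; only the first kind was used. Each of 17097 genes was represented by its probe set of highest mean, and 10258 genes with a mean above 5.80 (the 40th percentile) were kept.

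Models were fitted with limma 3.58.1 in R 4.3.3 to all 47 mice, with an intensity trend and Benjamini-Hochberg adjustment over all genes at 0.05. On the control diet 3 tests were made: a 24 h cosine and sine curve, any difference among the 6 times, and departure from the curve. Another test compared the curve between diets, with time as 6 levels. Replicates are separate mice. No series columns were left unmapped (0). Promoters are RefSeq entries for GRCm38.p6; the arrays' files name no build.

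The named genes were, by rule, the 15 called genes of largest amplitude, the 4 of smallest p in each peak window, the 10 of smallest p for departure and for any difference, all clock genes tested, the 4 genes of smallest p in each list, and the genes of the lists and the 5 others with a diet difference. The samples, gene lists and rules were chosen with earlier results of these data known, and the genes outside the clock shown mouse by mouse, as well as Cdk4 and Pax7, which the rule does not name, were chosen after their values were seen. Alternatives changed the filter, normalization, choice of probe set, variance model, weights, blocks, curve and mice. Replicate numbers in the labels did not pair mice: of 60 same-numbered pairs, 8 had deviations correlated over 0.1, with a mean of -0.0309. The models were also run on simulated data, which held no differences between days.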

Additional observations from a re-analysis of the deposited data

Results flagged for a closer look

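In the 42 genes shown mouse by mouse or in the clock list, 14 single mice stood far from the other 3 of their group, among 252 groups of 4; chance alone gives about 1 in 20 groups. Clock was 8.33 log2 in control ZT0 replicate 4, beside 8.13 to 8.16 in the others. Cry1 was 6.98 in ZT12 replicate 1, beside 7.26 to 7.30, and Cry2 was 7.97 in ZT12 replicate 3, beside 7.61 to 7.63. Nr1d2 was 8.98 in ZT20 replicate 4, beside 8.19 to 8.30. Bhlhe40 was 9.66 in ZT0 replicate 2, beside 10.13 to 10.16, and 10.20 in ZT16 replicate 2, beside 9.81 to 9.86. Csnk1d was 12.36 in ZT8 replicate 4, beside 12.27 to 12.28.

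Outside the clock, Wee1 was 10.00 in ZT12 replicate 1, beside 9.63 to 9.69, and Acta1 was 7.82 in ZT4 replicate 4, beside 5.40 to 5.73. Cdh4 was 8.27 in ZT0 replicate 2, beside 8.73 to 8.76, and Hsd11b1 was 10.04 in ZT8 replicate 2, beside 9.70 to 9.75. Tob2 was 10.71 in ZT8 replicate 4, beside 10.52 to 10.53. Tob2 was also 10.17 in ZT16 replicate 4, beside 10.33 to 10.35, and 10.81 in ZT20 replicate 4, beside 10.96 to 10.98.

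The 24 h rhythm differed between the control and the high-fat diet, by limma's test of the difference, in 27 of the named genes. The smallest adjusted p-values were 0.000926 for Mag, 0.00516 for Xpo1, 0.00828 for Ezh1 and for Atxn2, and 0.0105 for Car5b. The adjusted p was 0.0174 for Klf9 and Scd1, 0.0192 for Aldoa and Nr4a2, 0.0198 for Cdkn1c, 0.0212 for Hnrnpl and 0.0225 for Txnip. It was 0.023 for Bhlhe41 and Nr4a1, 0.0248 for Tob2, 0.0318 for Elovl5, 0.0336 for Sparc and Ccnd1, and 0.0363 for Hspg2. It was 0.0396 for Dkc1, Bnip3l and Rb1, 0.0412 for Garnl3, 0.0419 for Sesn1 and Ncam1, 0.0427 for Uqcrc2 and 0.0432 for Acta1.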

How the results depend on the processing

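Counts have no sign. An amplitude counted as moved if its fitted peak lay nearer to the opposite time of day than to the main peak. Over the named genes and alternatives, 6988 amplitudes kept their side of the threshold, 405 lost their call and 156 gained one. The other 23 moved, all in genes not called in the main fit. The 24 h count of 1081 was 289 with day as a random block, 1720 with a 12 h curve in the model and 606 without the ZT8 mice, and the 16 clock genes were 10 with day as a random block. The diet difference count of 216 was 431 with array weights, 105 with the replicate block and 22 with 24 h curves in place of the time factor. Without each mouse in turn, the counts ran from 839 to 1126 for the 24 h curve, 3273 to 3740 for any difference, 1995 to 2377 for departure, 59 to 247 for the diet difference, 13 to 17 for clock genes and 11 to 11 for cholesterol synthesis. Mice whose absence moved the diet difference count by over 1.5 times were replicates 3 and 1 of high-fat ZT16 (59 and 102 genes), replicates 4 and 3 of control ZT16 (120 and 140), replicate 3 of control ZT4 (139) and replicate 3 of control ZT8 (142). With the replicate block the first 3 counts were 946, 3499 and 2126; the numbers do not pair the mice. The causes were not tested.

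Of 114 named genes on the 24 h curve, 49 were called in every fit, 84 without each mouse in turn, 54 without each time in turn and 66 with day as a random block. With 4 mice a time, 6 times and 1 day for each, small amplitudes and shapes other than a 24 h curve are limited in precision. Genes with a mean signal under the limit of 5.80 were not tested.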
